A study of Mus musculus with 6 samples.

Results

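The genes described here were low, but mostly not silent, in control KD mouse morulae and passed a low limit in every *Yy1* KD library. They were chosen by their measured values: a gene was taken if it had a TPM under 1 in all 3 control KD libraries and a TPM of at least 1 in all 3 *Yy1* KD libraries. TPM is a measure of transcript abundance that takes account of exon length and has the same sum in every library, so that levels can be compared between genes. The rule took 120 of the 55364 genes in the table, and they are called switched-on genes below for that reason alone. The mirrored rule, with the groups exchanged, took 131 genes. Because the switch itself was the criterion, the levels of these genes in the 2 groups are a description, no p-value of a single member is given, and counts of members called by a fit of all genes are printed beside the share of all genes called.

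Zygotes from in vitro fertilization of BDF1 eggs with BDF1 sperm were injected in the cytoplasm with an siRNA against *Yy1* (*Yy1* KD) or with a control siRNA (control KD), cultured in KSOM medium and collected as morulae 64 h after insemination. Each of the 6 libraries was made from 10 pooled morulae, and the sex of the pools is not given. Both groups were therefore injected and cultured alike, and a knockdown lowers a transcript without deleting its gene. As the check of the labels, *Yy1* had a TPM of 96.0, 100.2 and 89.8 in the control KD libraries and of 8.73, 8.90 and 8.32 in the *Yy1* KD libraries. It was at 9.07% of the control level (log2 fold change of -3.32, SE 0.09, adjusted p = 6.71e-05 in limma).

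YY1 is a zinc finger protein that binds DNA and can activate or repress transcription, depending on where it binds and with which partners. The morula is the compacted embryo just before the blastocyst, when the outer cells begin to turn to trophectoderm and the inner cells to the inner cell mass, and genes of later tissues are for the most part not yet transcribed. At such low levels a few reads can decide on which side of a limit a short gene falls, and read pairs per gene are therefore given beside TPM. In pools of whole embryos, fewer cells with a transcript and less of it per cell cannot be told apart.

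The 3 control KD libraries held 12519597 to 24417790 read pairs on genes, with a median of 18109905, and the 3 *Yy1* KD libraries held 11793509 to 18674187, with a median of 12865988. For a gene with 100 nt of exons, 1 read pair was worth a TPM of 0.969 to 1.93 in the control KD libraries and of 1.29 to 2.02 in the *Yy1* KD libraries, so that for such a gene 1 pair already passed the limit in every *Yy1* KD library. All 15 markers of the morula that were examined, *Pou5f1* and *Cdx2* among them, were over the limit in all 6 libraries. Being over it does not mean that a marker was unchanged. *Zfp42* had a TPM of 216, 210 and 227 in control KD and of 23.5, 26.3 and 20.6 in *Yy1* KD. *Cdx2* had 56.1, 61.6 and 65.0 in control KD and 69.3, 57.1 and 57.0 in *Yy1* KD. Of the 20 markers of cumulus and granulosa cells, 14 stayed under the limit in all 6 libraries. *Fshr*, *Cyp19a1* and *Has2* were listed at 0 in each. *Amhr2* and *Inhbb* were over the limit in all 6. *Amhr2* had 10.02, 8.16 and 8.56 in control KD and 7.15, 8.52 and 8.61 in *Yy1* KD. *Inhbb* had 2.68, 2.59 and 3.21 in control KD and 2.64, 3.93 and 2.13 in *Yy1* KD. *Star* lay on both sides of the limit in both groups. No switched-on gene belonged to the lists of cumulus, sperm or blood cell markers. The summed TPM of the 20 cumulus and granulosa cell markers was 12.98 to 16.0 in control KD and 14.8 to 16.8 in *Yy1* KD. Most of this sum came from *Amhr2* and *Inhbb*, so it says little about the markers at low levels. *Kitl* of the same list had 0.163, 0.360 and 0.408 in control KD and 0.852, 2.31 and 1.16 in *Yy1* KD, so that its groups did not overlap and only 1 library kept it from meeting the rule, and *Inha* was at 0 in control KD and had 0.350, 0 and 1.78 in *Yy1* KD. The part of such cells in the results was not tested.

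Most genes never came near the limit from both sides. Of the 55364 genes, 32969 were under a TPM of 1 in all 6 libraries and 13611 were at or over it in all 6, which left 8784 genes that lay on both sides. The switched-on rule took 1.37% of these and the mirrored rule 1.49%. Over all genes in the table the shares were 0.217% and 0.237%. The count of switched-on genes was thus 11 lower than the mirrored count, and this order was not kept in every setting. With a limit of 0.5 the counts were 139 and 99, and with a limit of 2 they were 119 and 133. With median-ratio scaling of the libraries they were 129 and 123, and with all libraries thinned to the same number of read pairs they were 120 and 123. The order also turned with 1 library left out, at 220 and 216 without control KD replicate 3, 263 and 222 without *Yy1* KD replicate 1 and 270 and 204 without *Yy1* KD replicate 2. The genes behind these counts changed too: the reported 120 shared 31 genes with the 139 at a limit of 0.5, 19 with the 119 at a limit of 2, 117 with the 129 under median-ratio scaling and 94 with the 120 at equal depth.

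**Figure D1:**
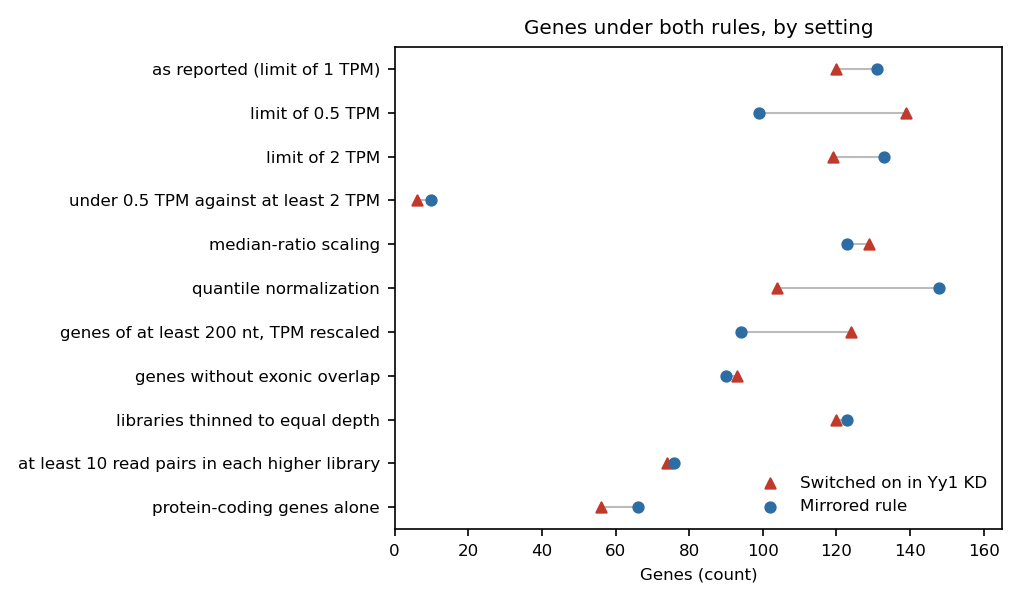
Number of genes (horizontal axis) that met the switched-on rule (triangles) and the mirrored rule (circles) in the settings named on the rows. The triangle lies to the left of the circle in the reported setting, at 120 against 131, and to its right with a limit of 0.5, with median-ratio scaling, with genes of at least 200 nt and with genes that share no exonic sequence.

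By symbol, 58 of the 120 switched-on genes had a gene name of their own, 52 had a predicted Gm symbol, 3 a Rik clone symbol, 1 a pseudogene symbol and 6 a microRNA symbol. Under the mirrored rule these classes held 65, 49, 7, 3 and 7 genes. The annotation gave a type for all 120, which cuts across the symbols: 56 (46.7%) were protein-coding genes, 25 (20.8%) long noncoding RNA genes, 22 (18.3%) pseudogenes and 17 (14.2%) short RNA genes. The mirrored genes held 66 protein-coding genes (50.4%), 21 long noncoding RNA genes, 26 pseudogenes and 18 short RNA genes. In both sets coding genes were the largest class and short RNA genes the smallest.

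Protein-coding genes were 29.5% of the 8784 genes on both sides of the limit. The switched-on rule took 2.16% of those coding genes, against 1.08% of the long noncoding RNA genes, 1.01% of the pseudogenes and 1.03% of the short RNA genes. The mirrored rule took 2.55%, 0.911%, 1.2% and 1.09% of the same classes. The larger share of coding genes was thus seen in both directions.

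**Figure D2:**
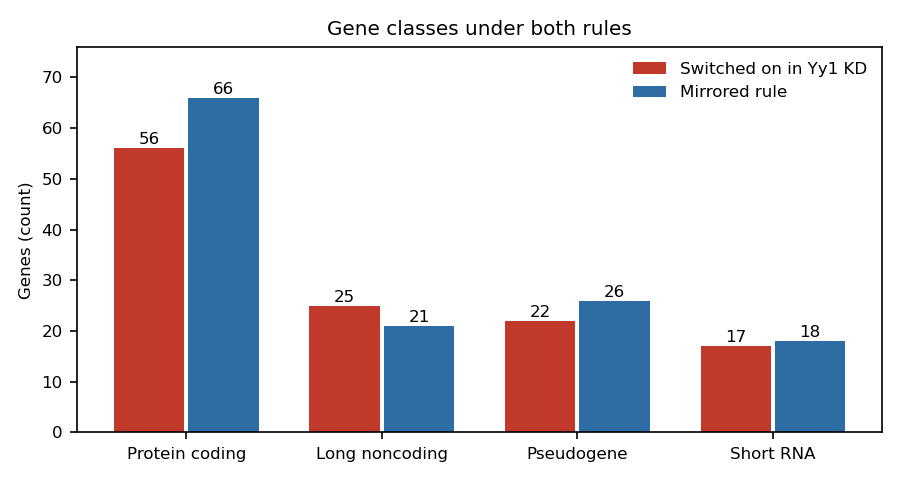
Number of genes (vertical axis) in each annotated class for the switched-on rule (red) and the mirrored rule (blue). The 4 classes hold 56, 25, 22 and 17 switched-on genes against 66, 21, 26 and 18 mirrored genes.

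Most switched-on genes stayed low after they passed the limit. Their mean TPM in the *Yy1* KD libraries had a median of 1.83 and ran from 1.12 to 26.7, with 52 genes at a mean of 2 or more, 13 at 5 or more and 4 at 10 or more. In the control KD libraries the median over the 120 genes was 0.453, 0.525 and 0.468, and in the *Yy1* KD libraries it was 1.73, 1.76 and 1.89. The highest value of a gene fell in *Yy1* KD replicate 1 for 40 genes, in replicate 2 for 34 and in replicate 3 for 46. Of the 120 genes, 14 were listed at 0 in all 3 control KD libraries, and the other 106 had a mean 1.43 to 63.8 times that of the control, with a median of 3.68. All 3 *Yy1* KD libraries were at least 2 times the highest control KD library for 59 of the 120. Among the 17353 genes tested in limma, 0.674% met that condition, and the 59 are part of that share. Under the mirrored rule the condition, with the groups exchanged, held for 63 of 131 genes, against 1.12% of the genes tested. Both rules already ask for groups that do not overlap, so nothing is read from these counts.

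limma called 31 of the 120 switched-on genes upregulated, where 1.92% of all genes tested were called upregulated, but the rule used the same libraries and nothing is read from this count. The calls lay mostly outside the coding genes, with 5 of 56 coding genes, 6 of 25 long noncoding RNA genes, 9 of 22 pseudogenes and 11 of 17 short RNA genes. With limma-voom on the recovered read pairs, which weighs a value by its number of reads, 30 of 55 coding genes and 3 of 17 short RNA genes were called, in all 47 of 118, where 4.78% of the genes tested were called upregulated. Which members were called thus differed between these fits.

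The gene with the highest level was *Gm36551* (ENSMUSG00000106478.1), an antisense long noncoding RNA gene on chromosome 5 (137857045 to 137860318, plus strand, GRCm38) with 300 nt of exons. Its TPM was 0.161, 0.646 and 0.447 in the control KD libraries and 27.3, 31.2 and 21.5 in the *Yy1* KD libraries. These values rested on 0.25, 2 and 1 read pairs in control KD and on 63.3, 51.5 and 32 in *Yy1* KD, a fraction being a pair shared with another gene. Every *Yy1* KD library was at least 33.3 times the highest control KD library, and the ratio of the means was 63.8. *Gm36551* shares exonic sequence with *Pilrb1* on the opposite strand, a gene for a paired immunoglobulin-like receptor of myeloid cells. The counting ignored strand, and reads of the 2 genes in the shared part cannot be told apart. *Pilrb1* itself stayed at a mean TPM of 0.00823 ± 0.0142 in control KD and 0.0537 ± 0.0750 in *Yy1* KD (SD, n = 3).

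A second switched-on antisense gene, *Gm43495*, lies 10.4 kb further along the same strand and overlaps the neighbouring *Pilrb2*. It had a TPM of 0.236, 0.945 and 0 in control KD and of 1.89, 1.77 and 1.48 in *Yy1* KD, from no more than 3 read pairs in any *Yy1* KD library. *Pilrb2* had 0.0247, 0.0990 and 0.0685 in control KD and 0.352, 0.743 and 0.670 in *Yy1* KD, with groups that did not overlap, and reads of *Gm43495* and *Pilrb2* in the shared part cannot be told apart.

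*Gm48423*, a long intergenic noncoding RNA gene on chromosome 13 (67981215 to 67985971, GRCm38), was the other strongly read noncoding gene. Its TPM was 0.971, 0.504 and 0.767 in control KD and 6.23, 13.5 and 6.44 in *Yy1* KD, from 139, 214 and 92 read pairs in the latter. A further noncoding gene, *Gm48419*, lies 10976 nt away and was not used by the rule. *Gm48419* had a TPM of 2.78, 1.16 and 2.76 in control KD and of 10.2, 26.8 and 8.89 in *Yy1* KD, with groups that did not overlap, as for 12.9% of all genes tested (log2 fold change 2.22, SE 0.44, adjusted p = 0.0372 in limma, between 0.00605 and 0.101 over the alternatives tried). In both genes *Yy1* KD replicate 2 was the highest library.

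Of the 25 switched-on long noncoding RNA genes, 13 were annotated as antisense and 7 as long intergenic RNA genes. Their mean TPM in *Yy1* KD had a median of 1.85, and 13 of the 25 held at least 10 read pairs in each *Yy1* KD library. *Aknaos*, antisense to *Akna*, had 0.175, 0.132 and 0.243 in control KD and 2.81, 1.24 and 2.74 in *Yy1* KD. *Gm43608* was listed at 0 in all 3 control KD libraries and had 1.88, 1.85 and 7.35 in *Yy1* KD, with 10, 7 and 25 read pairs. *Platr3*, one of the noncoding RNAs named for their link to pluripotency, had 0.469, 0 and 0 in control KD and 1.57, 1.32 and 2.45 in *Yy1* KD, from 3 to 5 read pairs. These 3 genes and the ones named in the paragraphs on imprinted and overlapping genes were picked after their values were seen.

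*Muc3* (ENSMUSG00000037390.12), which encodes a mucin of the intestinal epithelium, was the coding gene with the highest level. It lies on chromosome 5 (137134922 to 137149322, minus strand, GRCm38) and had a TPM of 0.497, 0.299 and 0.552 in the control KD libraries and of 4.79, 13.8 and 15.8 in the *Yy1* KD libraries. The read pairs behind these values were 5, 6 and 8 in control KD and 72, 147 and 152 in *Yy1* KD. *Yy1* KD replicate 1 was the lowest of the 3, and it still stood at 8.67 times the highest control KD library. The means were 0.449 ± 0.133 and 11.4 ± 5.86 (SD, n = 3), a ratio of 25.5.

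Among the 54 coding genes with a name of their own, *Muc3* stood apart, and the next 14 by level had a mean TPM between 1.81 and 3.76 in *Yy1* KD. No coding gene was listed at 0 in any control KD library. Their depth was better than that of the other classes: 53 of the 55 coding genes with a known exon length of the same version held at least 10 read pairs in each *Yy1* KD library, and the median of the library with the fewest pairs was 28. The highest *Yy1* KD library of a coding gene was 1.13 to 4.48 times its lowest, with a median of 1.59.

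**Figure D3:**
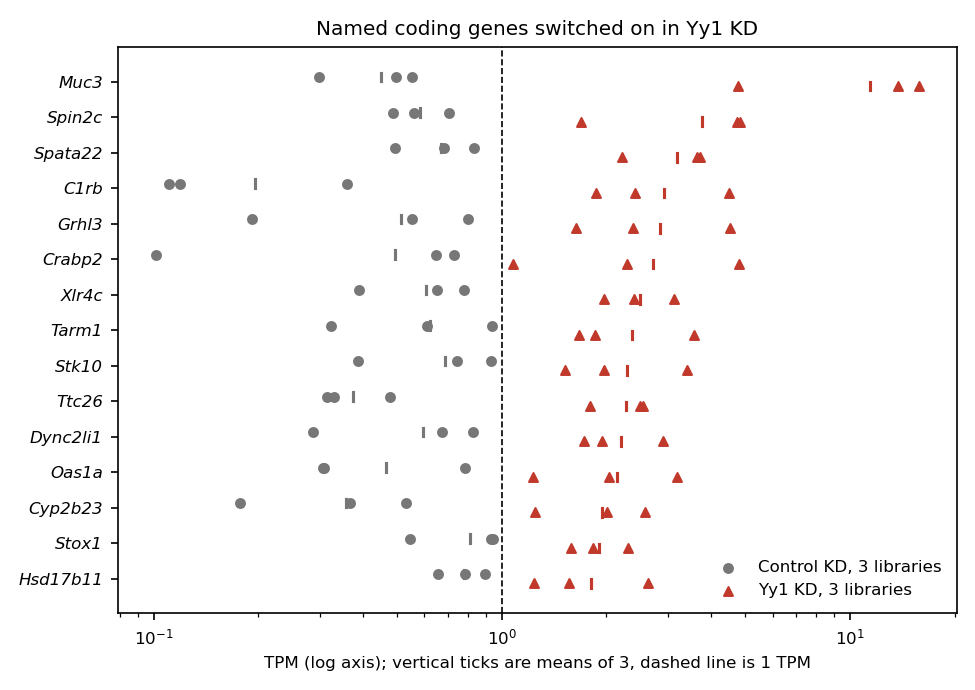
TPM of the 15 named coding genes with the highest mean in *Yy1* KD (rows; horizontal log axis) in the 3 control KD libraries (circles) and the 3 *Yy1* KD libraries (triangles), with the mean of each group as a tick and the limit of 1 as a dashed line. *Muc3* reaches 4.79 to 15.8 in *Yy1* KD, and the other genes lie between 1.07 and 4.84.

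The coding genes were sorted by what they are known to do, after their values had been seen, to show what the set holds. Besides *Muc3*, genes of epithelia were *Grhl3*, a grainyhead transcription factor of surface epithelium, and *Eppk1*, which encodes epiplakin, a binder of keratin filaments. *Grhl3* had a TPM of 0.554, 0.799 and 0.192 in control KD and of 4.54, 1.63 and 2.39 in *Yy1* KD. *Eppk1* had 0.674, 0.707 and 0.456 in control KD and 1.53, 1.15 and 1.81 in *Yy1* KD, from 78 to 146 read pairs.

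Genes best known from germ cells were 7 in number, with a median of their mean TPM in *Yy1* KD of 1.39. *Spin2c*, an X-linked member of the spindlin family, had 0.561, 0.703 and 0.487 in control KD and 1.69, 4.75 and 4.84 in *Yy1* KD. *Spata22*, needed for meiotic recombination, had 0.834, 0.494 and 0.684 in control KD and 3.63, 3.71 and 2.22 in *Yy1* KD. In both genes all *Yy1* KD libraries were more than 2 times the highest control KD library.

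*Spata22* shares exonic sequence with the coding gene *Gm49340*, whose mean TPM was 0.354 in control KD and 0.948 in *Yy1* KD. *Xlr4c*, of an X-linked cluster of lymphocyte-regulated genes, had 0.779, 0.651 and 0.390 in control KD and 1.97, 2.40 and 3.12 in *Yy1* KD. It lies within *Xlr5a* and belongs to a family of near-identical copies. The authors state that reads aligned to several places were counted for repeats, and they state no such option for genes. Reads that match several copies may thus be missing from its count. The other germ cell genes were *Phf7*, a histone reader of the male germ line, *Spata21*, *Speer4d* and *Nlrp9a*, an NLR gene of oocytes, with means between 1.17 and 1.39. *Spata22* was the only switched-on gene among the 51 germline genes of the list that was compared.

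Intraflagellar transport, which builds cilia, was represented by *Ttc26* and *Dync2li1*. *Ttc26* encodes a subunit of the transport complex B and had 0.331, 0.477 and 0.315 in control KD and 1.80, 2.49 and 2.55 in *Yy1* KD, from 65, 64 and 59 read pairs. *Dync2li1* encodes a light intermediate chain of the cilium's dynein and had 0.827, 0.674 and 0.287 in control KD and 1.73, 1.95 and 2.92 in *Yy1* KD. *Dnhd1*, which encodes a dynein heavy chain domain protein, had a mean of 0.817 in control KD and 1.27 in *Yy1* KD.

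Genes of immune responses were 6 in number. *C1rb*, for a serine protease of the first complement component, had 0.119, 0.359 and 0.110 in control KD and 1.86, 4.49 and 2.41 in *Yy1* KD, and the mean in *Yy1* KD was 14.9 times that in control KD. *Oas1a*, an interferon-induced enzyme that senses double-stranded RNA, had 0.307, 0.308 and 0.782 in control KD and 1.23, 3.18 and 2.03 in *Yy1* KD. It was 1 of 38 innate immune and interferon response genes on the list, and 29 of these 38 stayed under the limit in all 6 libraries. The summed TPM of that list was 49.8 to 56.2 in the control KD libraries and 42.8 to 46.7 in the *Yy1* KD libraries. *Tarm1*, a receptor of myeloid cells, had 0.935, 0.609 and 0.324 in control KD and 3.56, 1.67 and 1.86 in *Yy1* KD. The other 3, *Nfkbie*, *Tapbpl* and *Ptafr*, had means of 1.48 to 1.54 in *Yy1* KD.

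Of the genes for the metabolism of small molecules, *Crabp2*, which carries retinoic acid in the cell, had 0.731, 0.647 and 0.101 in control KD and 1.07, 4.81 and 2.29 in *Yy1* KD. Its lowest *Yy1* KD library was just over the limit, with 11 read pairs. *Cyp2b23*, a cytochrome P450 gene, had 0.530, 0.177 and 0.367 in control KD and 2.01, 1.25 and 2.58 in *Yy1* KD. *Hsd17b11*, a dehydrogenase of lipid droplets, had 0.898, 0.786 and 0.657 in control KD and 1.24, 1.56 and 2.63 in *Yy1* KD. *Dhrs7* and *Pter* had means of 1.66 and 1.52 in *Yy1* KD.

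Regulators of transcription and chromatin were 8 of the 56 coding genes, and all were low. *Stox1*, a winged helix gene, had 0.945, 0.934 and 0.546 in control KD and 1.58, 1.83 and 2.30 in *Yy1* KD. *Hoxd10*, a posterior homeobox gene, had 0.904, 0.916 and 0.714 in control KD and 1.46, 1.64 and 1.95 in *Yy1* KD. It shares exonic sequence with the transcript *Gm28309*, which had a mean of 2.86 in control KD and 4.88 in *Yy1* KD. The nuclear receptor genes *Nr2f6* and *Rora*, the bHLH gene *Npas1*, *Zfp334*, *Arid5a* and the histone deacetylase gene *Hdac8* had means of 1.25 to 1.66 in *Yy1* KD.

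Genes of signalling, the cytoskeleton and the extracellular matrix were the largest group, with 14 members at means of 1.12 to 2.30. The highest was *Stk10*, a kinase of ezrin, radixin and moesin, with 0.745, 0.934 and 0.388 in control KD and 3.41, 1.96 and 1.52 in *Yy1* KD. *Stc2*, *Ntn4*, *Apcdd1*, *Gnb4*, *Plch1*, *Arhgap27*, *Rap1gap2*, *Cyfip2*, *Neurl1a*, *Ndrg4*, *Adamts3*, *Arrdc4* and *Abi3bp* made up the rest. The sensory receptor genes *Trpa1* and *Tas1r1* had means of 1.63 and 1.51 in *Yy1* KD, and the 5 coding genes left, *Umad1*, *Pnma1*, *Efcc1*, *Gm6176* and *Gm13078*, had means of 1.53 to 2.53.

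*Peg10*, an imprinted retrotransposon-derived gene needed for the placenta, was the only switched-on gene among the 63 imprinted genes of the list that were in the table. Its TPM was 0.985, 0.770 and 0.221 in control KD and 1.73, 1.20 and 1.06 in *Yy1* KD, so that its highest control and lowest *Yy1* KD library were close together. *Igf2os*, antisense to the imprinted *Igf2*, had 0.416, 0.735 and 0.879 in control KD and 1.48, 1.40 and 1.25 in *Yy1* KD. It shares exonic sequence with *Igf2*, which had a mean of 1.08 in control KD and 2.15 in *Yy1* KD (adjusted p = 0.134 in limma, 0.0441 without the variance trend and 0.0322 with limma-voom).

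*Prl7b1*, a prolactin family gene of the placenta, had 0.209, 0.105 and 0.724 in control KD and 1.54, 1.77 and 1.96 in *Yy1* KD. *Capn6*, a calpain gene expressed in the placenta, had 0.347, 0.385 and 0.456 in control KD and 1.39, 1.11 and 1.17 in *Yy1* KD. The short RNA gene *Gm47298* lies in its exonic sequence and met the rule too, so that the 2 share reads and are not independent members. None of the 30 trophectoderm and trophoblast genes of the list met the rule, and their summed TPM was 3253 to 3475 in control KD and 2794 to 3181 in *Yy1* KD.

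No switched-on gene was found among the lists of 2-cell and MERVL-linked genes, maternal transcripts, p53 targets, inner cell mass and pluripotency genes, primitive endoderm genes, Y-linked genes or the partners of YY1. Of the 34 genes of the 2-cell and MERVL-linked list in the table, 5 were under the limit in all 6 libraries. The 120 genes thus had 3 members in the 15 lists, *Spata22*, *Oas1a* and *Peg10*, and the mirrored genes had *Sohlh2* in the germline list and *Uty* in the Y-linked list. The summed TPM of the 9 Y-linked genes was 26.9 to 44.4 in control KD and 16.4 to 21.9 in *Yy1* KD, with groups that did not overlap. Whether the mix of male and female embryos differed between the groups was not tested.

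The 17 short RNA genes were 9 microRNA genes, 7 small nuclear RNA genes and 1 other, and their values rested on very few reads. Their exons had a median length of 103 nt, and in each of the 17 the *Yy1* KD library with the fewest reads held 3 read pairs or fewer, with a median of 1. The library kit amplifies cDNA of long RNA, and a read pair within a microRNA gene can come from any longer transcript across it. The mature microRNA was therefore not measured. The sequences are printed for the microRNA genes that RefSeq (GRCm38.p6) holds, 6 of the 9, with the seed, bases 2 to 8, in capitals, to show whether the genes could form a family.
mmu-miR-7669-5p: aGUACCACcauacacagcuuuug
mmu-miR-3060-5p: gGGAGUGCuucgugcuucug
mmu-miR-3060-3p: cCAUAGCAcagaagcacuccca
mmu-miR-743b-5p: uGUUCAGAcugguguccauca
mmu-miR-743b-3p: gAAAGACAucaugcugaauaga
mmu-miR-7663-5p: gCUGCUUGgugaucauccacugu
mmu-miR-7663-3p: aGUGUGGAucauaaggagcucc
mmu-miR-6905-3p: aAAUAACCuuaucugcccgau
mmu-miR-7053-5p: uGGGGAAAggcaggcuacugg
mmu-miR-7053-3p: cUCCUGUGucuccuuccccag

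The 10 mature sequences have 10 different seeds, so no pair of these genes shares one. *Mir7669* was listed at 0 in all 3 control KD libraries and had a TPM of 1.11, 34.5 and 3.48 in *Yy1* KD, which were 0.5, 11 and 1 read pairs. *Mir3060* was likewise at 0 in control KD and had 18.7, 6.57 and 4.86 in *Yy1* KD, from 12, 3 and 2 read pairs. *Mir743b*, an X-linked microRNA gene, was at 0 in control KD and had 8.39, 7.08 and 10.5 in *Yy1* KD, from 5, 3 and 4 read pairs, the most even of the 3.

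Of the 6 microRNA genes with a sequence, 5 lie within a coding gene on the same strand. *Mir7669* lies in *Ubap2l*, which had a mean TPM of 20.6 in control KD and 21.7 in *Yy1* KD, and *Mir3060* lies in *Rnf215*, with 4.40 and 3.33. *Mir7663* lies in *Tbpl1*, with 20.6 and 19.6, *Mir7053* in *Pold1*, with 37.0 and 29.6, and *Mir6905* in *Med23*, with 23.6 and 30.8. The adjusted p of these 5 host genes in limma lay between 0.0610 and 0.862. *Med23* was called upregulated with limma-voom (adjusted p = 0.0272) and with quantile normalization in limma (adjusted p = 0.0475).

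The small nuclear RNA gene *Gm25405* had 0, 0.905 and 0 in control KD and 23.5, 1.70 and 1.89 in *Yy1* KD, where replicate 1 held 19.5 read pairs and each of the others held 1. The microRNA gene *Gm25847* was at 0 in control KD and had 12.1, 3.79 and 8.41 in *Yy1* KD, and the small nuclear RNA gene *Gm25371* was at 0 in control KD and had 1.28, 3.60 and 18.99. Over the 17 short RNA genes the highest *Yy1* KD library was 1.42 to 31.0 times the lowest, with a median of 2.84, a wider spread than the median of 1.59 among coding genes. Of the 14 switched-on genes at 0 in all 3 control KD libraries, 10 were short RNA genes.

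**Figure D4:**
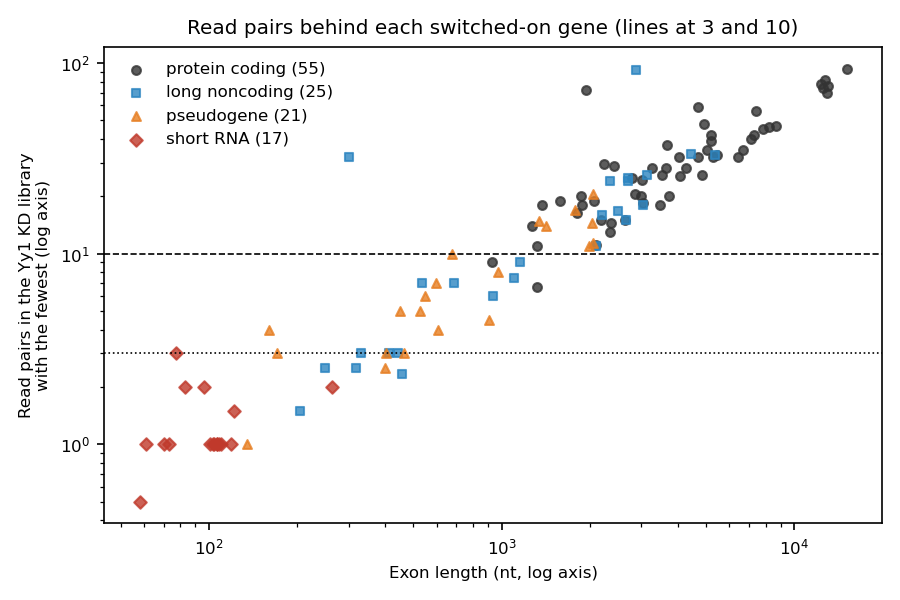
Read pairs in the *Yy1* KD library with the fewest (vertical log axis) against exon length (horizontal log axis) for the 118 switched-on genes with a length of the same version, by class. All 17 short RNA genes lie at or under the dotted line at 3 read pairs, and 53 of the 55 coding genes lie at or over the dashed line at 10.

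Pseudogenes were 22 of the 120, with 20 annotated as processed and 1 as transcribed processed. A processed pseudogene is a copy of a spliced messenger RNA put back into the genome. The level of the 22 was low, with means of 1.20 to 4.69 in *Yy1* KD, and 8 of the 21 with a known length held at least 10 read pairs in each *Yy1* KD library. *Gm11936*, a copy related to *Polr2k*, had 0, 0 and 0.838 in control KD and 3.23, 4.55 and 6.31 in *Yy1* KD, from 4 to 5 read pairs. *Gm12306* was at 0 in control KD and had 2.27, 5.32 and 6.49 in *Yy1* KD. *Gm5309*, related to *Nap1l1*, was better covered and steadier, with 0.856, 0.858 and 0.792 in control KD and 3.24, 4.03 and 2.98 in *Yy1* KD.

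The other pseudogenes with the highest levels were *Gm18304*, related to *Ptrh2*, with means of 0.295 in control KD and 3.59 in *Yy1* KD, and *Gm6076*, related to *Ppia*, with 0.587 and 2.93. A closest coding relative was found by alignment for 21 of the 22, at 73.2% to 99.0% identity with a median of 89.5%. In 13 of the 21 the relative had a mean TPM of at least 100 in control KD. How reads that match both copies were placed was not tested. No option to count reads aligned to several places is stated for genes.

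Of the 18 relatives that entered the limma fit, counted once for each pseudogene, 13 were higher in *Yy1* KD. The median log2 fold change was 0.17. limma called 2 of the 18 upregulated, where 1.92% of all genes tested were called upregulated. *Nap1l1*, the relative of *Gm5309*, had a mean TPM of 489 in control KD and 551 in *Yy1* KD (adjusted p = 0.258 in limma). *Ncl*, which encodes nucleolin and is the relative of *Gm12020*, had a log2 fold change of 0.40 (adjusted p = 0.0252 in limma, at most 0.0911 over the alternatives). The copies *Gm4782* and *Gm8038* are both related to *Crnkl1*, at 89.5% identity each, and lie 9.16 kb apart on chromosome 6. *Gm8038* had 0.378, 0.900 and 0.852 in control KD and 3.65, 2.36 and 2.02 in *Yy1* KD, and *Gm4782* had 0.567, 0.710 and 0.0655 in control KD and 1.70, 2.58 and 1.12 in *Yy1* KD.

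The 120 genes were spread over 20 chromosomes, with 13 each on chromosomes 7 and 11, 10 each on chromosomes 5 and 6, and 6 on the X chromosome. Few lay side by side. *Gm12306* and *Gm25371* lie 355 nt apart on chromosome 11, and *Gm4883* and *Tmem147os* 24.5 kb apart on chromosome 7. *Nlrp9a* and *Cyp2b23* lie 89.6 kb apart on chromosome 7, and *Hoxd10* and the pseudogene *Gm14425* 161 kb apart on chromosome 2. The symbol *Tmem147os* also has another entry, which shares exonic sequence with the switched-on entry on the same strand. That other entry was over the limit in every control KD library and did not meet the rule. Its mean TPM was 1.35 in control KD and 1.41 in *Yy1* KD (log2 fold change -0.00888, SE 0.314, adjusted p = 0.991 in limma).

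Genes next to the switched-on genes were not used by the rule and could be tested. Within 50 kb of 87 of the 120 genes, or overlapping them, lay 252 other tested genes. A gene that shares exons with a switched-on gene was not taken as a neighbour of that gene. Genes that hold a switched-on gene without sharing its exons are included. Of these, 5 (1.98%) were called upregulated and 7 (2.78%) downregulated, against 1.92% and 4.2% of all 17353 genes tested. With limma-voom 16 of 248 neighbours (6.45%) were called in each direction, against 4.78% and 7.56% of all genes tested. The 5 upregulated neighbours were *Gm48419*, *Arg1*, *Tfg*, *Puf60* and *Mfn1*.

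*Arg1*, the arginase of the urea cycle, lies 4.49 kb from *Mir6905* and had a TPM of 4.86, 4.83 and 3.73 in control KD and of 7.71, 11.6 and 8.97 in *Yy1* KD (log2 fold change 0.92, SE 0.19, adjusted p = 0.0444 in limma, at most 0.132 over the alternatives). *Tfg*, which acts in the export of proteins from the endoplasmic reticulum, lies 197 nt from *Abi3bp* and had a log2 fold change of 0.55 (SE 0.10, adjusted p = 0.0282 in limma, at most 0.0976 over the alternatives). *Mfn1*, a mitochondrial fusion gene, lies 1.09 kb from *Gnb4* and had 0.41 (SE 0.08, adjusted p = 0.0339 in limma, at most 0.111 over the alternatives). The 7 downregulated neighbours were *Vamp2*, *Thap3*, *Slc39a4*, *Aars2*, *Babam1*, *Gpr137b-ps* and *Atpif1*.

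Overlap with other genes was common. Of the 120 genes, 59 overlapped another gene in some way and 27 shared exonic sequence with one. A coding gene that held the switched-on gene or shared its exons was found for 39, and in 28 of these the coding gene had a mean TPM of at least 1 in control KD. Of the 30 such coding genes, limma called none upregulated or downregulated, against 1.92% and 4.2% of all genes tested. With limma-voom 5 of the 30, *Igf2*, *Med23*, *Senp1*, *Vamp1* and *Zfp54*, were called upregulated, against 4.78% of all genes tested. *Ranbp6* was the 1 called downregulated, against 7.56%. *Igf2*, *Senp1*, *Zfp54* and *Ranbp6* share exonic sequence with a switched-on gene. The counting ignored strand, so these 4 are not independent of the rule. Without genes that share exonic sequence, 93 genes met the switched-on rule and 90 the mirrored rule.

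Promoter sequences, the 250 bases before and 50 after the start of a gene, were in RefSeq (GRCm38.p6) for 53 of the 120 genes, with 64 promoters in all. They were searched on both strands for the YY1 consensus GCCATNTT, for its core GCCAT, which every consensus match also holds, and for the TATA motif TATAAA. The consensus was in 2 of the 64 promoters (3.13%), in 15 of the 65 promoters of the mirrored genes (23.1%) and in 6.05% of all 32851 promoters. Among promoters of coding genes alone the share was 3.85% for the switched-on genes and 26.8% for the mirrored genes. For all coding genes that lay on both sides of the limit it was 4.59%.

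The core was in 45.3% of the promoters of the switched-on genes, in 50.8% of those of the mirrored genes and in 40.5% of all promoters. TATAAA was in 4.69%, 4.62% and 13.6% of the same promoters. Among promoters of coding genes alone it was in 5.77% for the switched-on genes and 5.36% for the mirrored genes. For all coding genes on both sides of the limit the share was 10.8%. The median number of CpG sites in the 300 bases was 14.5 for the coding switched-on genes, 20.5 for the coding mirrored genes, 11 for coding genes on both sides of the limit and 14 for all coding genes. A match is a description of the letters and not of binding.

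The 2 promoters with the consensus belong to *Hoxd10* and *Npas1*, and the 60 bases around each match are printed on the strand of the gene, with the match in capitals, forward in *Hoxd10* and reversed in *Npas1*.
Hoxd10 promoter, chr2:74691823-74691882, plus strand: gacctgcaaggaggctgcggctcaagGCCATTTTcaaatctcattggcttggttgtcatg
Npas1 promoter, chr7:16476940-16476999, minus strand: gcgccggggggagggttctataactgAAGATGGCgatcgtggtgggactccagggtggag

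The first base of the match lies 42 bases before the start of *Hoxd10* and 193 bases before that of *Npas1*. Both genes were low, with means of 1.68 ± 0.247 and 1.62 ± 0.448 in *Yy1* KD (SD, n = 3). *Npas1* had 0.642, 0.451 and 0.779 in control KD and 1.16, 2.05 and 1.64 in *Yy1* KD.

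The limit of 1 cut through a continuum. Just inside it, *Speer4d* had a lowest *Yy1* KD value of 1.0002, *Gm48136* of 1.0003 and *Nlrp9a* of 1.001, and *Abi3bp*, *Peg10* and *Trpa1* had a highest control KD value of 0.994, 0.985 and 0.977. Just outside it, *Atp2b4*, *Cxcl14* and *Gm10601* had a lowest *Yy1* KD value of 0.995, 0.994 and 0.994 and were left out, as were *Gm9121*, *Bag2* and *Ppl* with a highest control KD value of 1.001, 1.008 and 1.009. With a gap between the limits, under 0.5 in all control KD libraries and at least 2 in all *Yy1* KD libraries, 6 of the 120 genes were left, and 10 genes under the mirrored rule.

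Among coding genes, only the single highest gene was alike under both rules, with a mean of 11.6 in control KD for *Commd2* and of 11.4 in *Yy1* KD for *Muc3*. A mean of 5 or more was reached by 4 of 66 mirrored and 1 of 56 switched-on coding genes. For a mean of 2 or more the counts were 26 and 13. *Commd2* had 11.2, 12.4 and 11.4 in control KD and 0.858, 0.275 and 0.427 in *Yy1* KD, and *Usp31* had 9.14, 10.6 and 9.89 in control KD and 0.664, 0.459 and 0.646 in *Yy1* KD. *Lman1* and *Metap1d* had means of 6.73 and 5.54 in control KD. Over the 131 mirrored genes the median of the mean in control KD was 1.90 and the highest 11.9, where the 120 switched-on genes had 1.83 and 26.7 in *Yy1* KD. Among mirrored coding genes 12 of 66 were at 2 or more in all 3 control KD libraries, and among switched-on coding genes 2 of 56 were so in all 3 *Yy1* KD libraries, *Muc3* and *Spata22*.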

How the data were processed

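RNA-seq libraries were made with the SMART-Seq Stranded kit from 3 pools of control KD and 3 pools of *Yy1* KD morulae, assigned to groups by their labels. The authors trimmed reads with Trim Galore (version 0.6.7), aligned them to mm10 with HISAT2 (2.2.1), removed ribosomal RNA reads with bedtools, counted pairs on GENCODE vM25 genes with featureCounts (2.0.1; strand ignored, pairs on several genes split) and deposited TPM per gene and library. Separate cultures are not stated, so p-values measure only the spread between these libraries.

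The switched-on rule and its mirror were applied to the TPM as deposited. The members and lists were chosen with earlier results of these data known. The results of 3 genes that the rules for members or named genes, or the search for relatives, would have given are not reported here. Named genes were the 15 named coding members with the highest mean in *Yy1* KD, the top 5 of the Gm and Rik symbols, pseudogenes and short RNAs, members of the lists, the genes nearest the limit, the 5 highest of those at 0 in control KD, and the 5 highest coding mirrored genes; others were chosen after their values were seen.

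limma (3.58.1, R 4.3.3) was fitted with a variance trend to log2(TPM + 1) of genes that reached a TPM of 1 in 3 or more of the 6 libraries, two-sided, Benjamini-Hochberg adjusted over 17353 genes and called under 0.05. It was tested on simulated data. With 3 libraries against 3, an exact permutation test cannot go below p = 0.1. Read pairs were recovered as TPM times exon length from GENCODE vM21 (same assembly), which matched 120 of the 120 members, 118 with the same gene version. Between 99.3% and 99.4% of values under 20 pairs were multiples of a sixth of a pair, within 0.01. Closest coding relatives were found with blastn (2.17.0) against vM21 transcripts and overlaps with bedtools (2.31.1). Replicate numbers were not taken as pairs. Deviations from the group means of libraries with the same number had correlations of -0.00388, 0.0319 and 0.0747. Libraries with different numbers had -0.0713 to 0.0411. With 3 libraries in each group, these correlations cannot show whether libraries with the same number shared a batch. Alternatives were other limits and scalings, gene filters, equal depth, a pseudocount of 0.1, other filters, no variance trend, limma-voom, a replicate block and fits without 1 library.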

Additional observations from a re-analysis of the deposited data

How the results depend on the processing

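The 120 switched-on and 131 mirrored genes fell to 6 and 10 with limits of 0.5 and 2 together. In 2 settings chosen after seeing the data they were 74 and 76 with at least 10 read pairs in each higher library, and 56 and 66 for coding genes alone. Leaving out any 1 of the 6 libraries, which loosens the rule, gave 197 to 270 and 204 to 296, lowest for the first count without control KD replicate 2. The other limits, scalings and filters kept both counts within 1.5 times, but not the genes: of the 120, 31 were kept at a limit of 0.5, 19 at 2, 62 with genes of at least 200 nt, 93 without exonic overlap, 94 with quantile normalization or at equal depth and 117 with median-ratio scaling. In limma, the 333 upregulated and 728 downregulated genes became 77 and 270 without a filter on low values, 132 and 382 without a variance trend and 809 and 1280 with limma-voom. The 31 called switched-on genes became 8 without a filter and 47 with limma-voom, and the 38 called mirrored genes became 13 without a filter and 25 with a mean TPM of at least 1. With the replicate block, for libraries not known to share more than a number, these 4 counts were 69, 218, 7 and 12. Leaving out any 1 of the 6 libraries gave 22 to 92 and 53 to 326 genes, and 2 to 10 switched-on and 4 to 13 mirrored genes, with 1 group then at 2 libraries. The calls of *Gm48419*, *Arg1*, *Tfg*, *Mfn1* and *Ncl* were each lost in 8 to 10 of 14 alternatives, with the direction kept in all. Why these counts moved was not tested. *Yy1* stayed called, at log2 fold changes of -3.36 to -3.28 with a library left out. Depth limits the short RNA genes most, where 1 read pair can decide the side of the limit.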
